A study of Homo sapiens with 36 samples.

Results

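Of 61587 genes counted in HEK293T cells (an established line derived from human embryonic kidney), 62 had fewer than 10 reads in total over the 3 untreated vector libraries and at least 10 reads in each of the 12 arsenite libraries. Another 5 met the same limits (CRYAB, HSPA7, ZNF502, ZNF528 and H2AC4) and were set aside. Left out by symbol were HSPA7, CRYAB and the metallothionein, ZNF, HOX and histone genes. Zinc finger genes with other names, such as ZFP82, stayed in. The 62 were selected on these measured counts, so their presence under arsenite and near absence in untreated vector cells is a description with no test. The 12 hydrogen peroxide libraries and the 9 untreated libraries of complemented cells took no part in the choice. Outside the families left out, no gene met the same limits when other libraries stood in for arsenite. This held for the 12 hydrogen peroxide libraries and for the 9 untreated complemented libraries (0 genes each). The reverse choice asked for fewer than 10 reads over the vector arsenite libraries and at least 10 in each of the 12 untreated libraries. It also gave 0 genes outside those families. Limits on raw counts are harder to meet in reverse, because the arsenite libraries were deeper (median 82188010 counts, against 60713487 untreated).

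All cells carried a knockout (KO) of *TXNL1*, a thioredoxin-like protein that binds the proteasome, in an isogenic clone grown from a single sorted cell. The cells received an empty vector, WT TXNL1, TXNL1-DR-RD (D162R R234D, deficient in proteasome binding) or TXNL1-SxxS (thioredoxin cysteines replaced by serine) from lentiviral constructs. Each of these 4 lines was given DMSO as the untreated condition, arsenite at 100 µM or hydrogen peroxide at 600 µM for 6 h, with 3 replicates in each of 12 groups. *TXNL1* transcript itself was at 28.6 to 31.9 CPM (counts of the gene for each 1000000 counts of the library) in untreated vector cells and at 51.6 to 66.3 CPM in untreated complemented cells, so its RNA is not absent in the KO line. Library totals ran from 42072410 to 174119002 counts, and arsenite libraries were the deepest (median 82188010, against 60713487 untreated). WT arsenite replicate 1 and WT hydrogen peroxide replicate 2 stood apart from their groups, with an SD of 0.506 and 0.576 on the log2 scale around the group median against at most 0.17 in the other 34 libraries. Of the markers of this line, INA was at 12.2 to 27.2 CPM, NEFL at 0.577 to 3.11, PAX2 at 0.147 to 0.835 and NEFM at 0 to 0.297. Of markers of other cell types, PTPRC, CD3E, PECAM1 and ALB did not exceed 0.298 CPM, DCN reached 1.01 CPM, and the collagen gene COL1A1 was at 10.8 to 22.2 CPM.

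Arsenite binds thiol groups and burdens protein folding, and cells answer it with heat shock, metal and oxidative stress programmes. Genes with almost no reads in a cell line are often restricted to another tissue, and the catalogue of annotated genes also holds pseudogenes, which are copies that have lost their function, and long non-coding RNAs (lncRNAs). A read is counted for a gene when it falls on that gene's exons, so a gene that lies under or beside another can receive reads of its neighbour.

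By annotation, 35 of the 62 genes were protein coding (56.5%), 10 were lncRNAs, 13 were pseudogenes, 2 were miscellaneous RNAs (RN7SKP70 and RN7SKP80, copies of the 7SK RNA), 1 was a microRNA (MIR3620) and 1 was a transcript still to be checked experimentally. Among the 10204 genes that were as silent in untreated vector cells and had at least 10 reads over all 36 libraries, 24.6% were protein coding and 40% were lncRNAs. Over all genes tested, 53.1% were protein coding and 27.5% were lncRNAs. Median length was 2279 bases in the 62, 1075 in those silent genes and 2695 in all genes tested. The arsenite minimum of the choice favours long genes. Chromosome 11 held 10 of the 62 (16.1%, against 5.2% of all genes tested), chromosome 3 held 7 (11.3% against 5.6%) and chromosome 1 held 2 (3.2% against 9.9%). Those on chromosome 11 include CHRM1 with ENSG00000257002 and KRTAP5-2 with KRTAP5-AS1, overlapping genes that can hold the same reads. Shares by chromosome among the silent genes are not given here. The coding genes belonged to many tissues. They included receptors (CHRM1, the M1 muscarinic receptor, CHRNA2, a nicotinic receptor subunit, and CX3CR1, a chemokine receptor), lymphocyte genes (TAGAP, BTLA and RHOH) and secreted proteins (VEGFD, DKK4, HPX, which binds haem, and TF, transferrin). Transcription factors were EGR4, FOXJ1, which drives motile cilia, and UNCX.

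**Figure D1:**
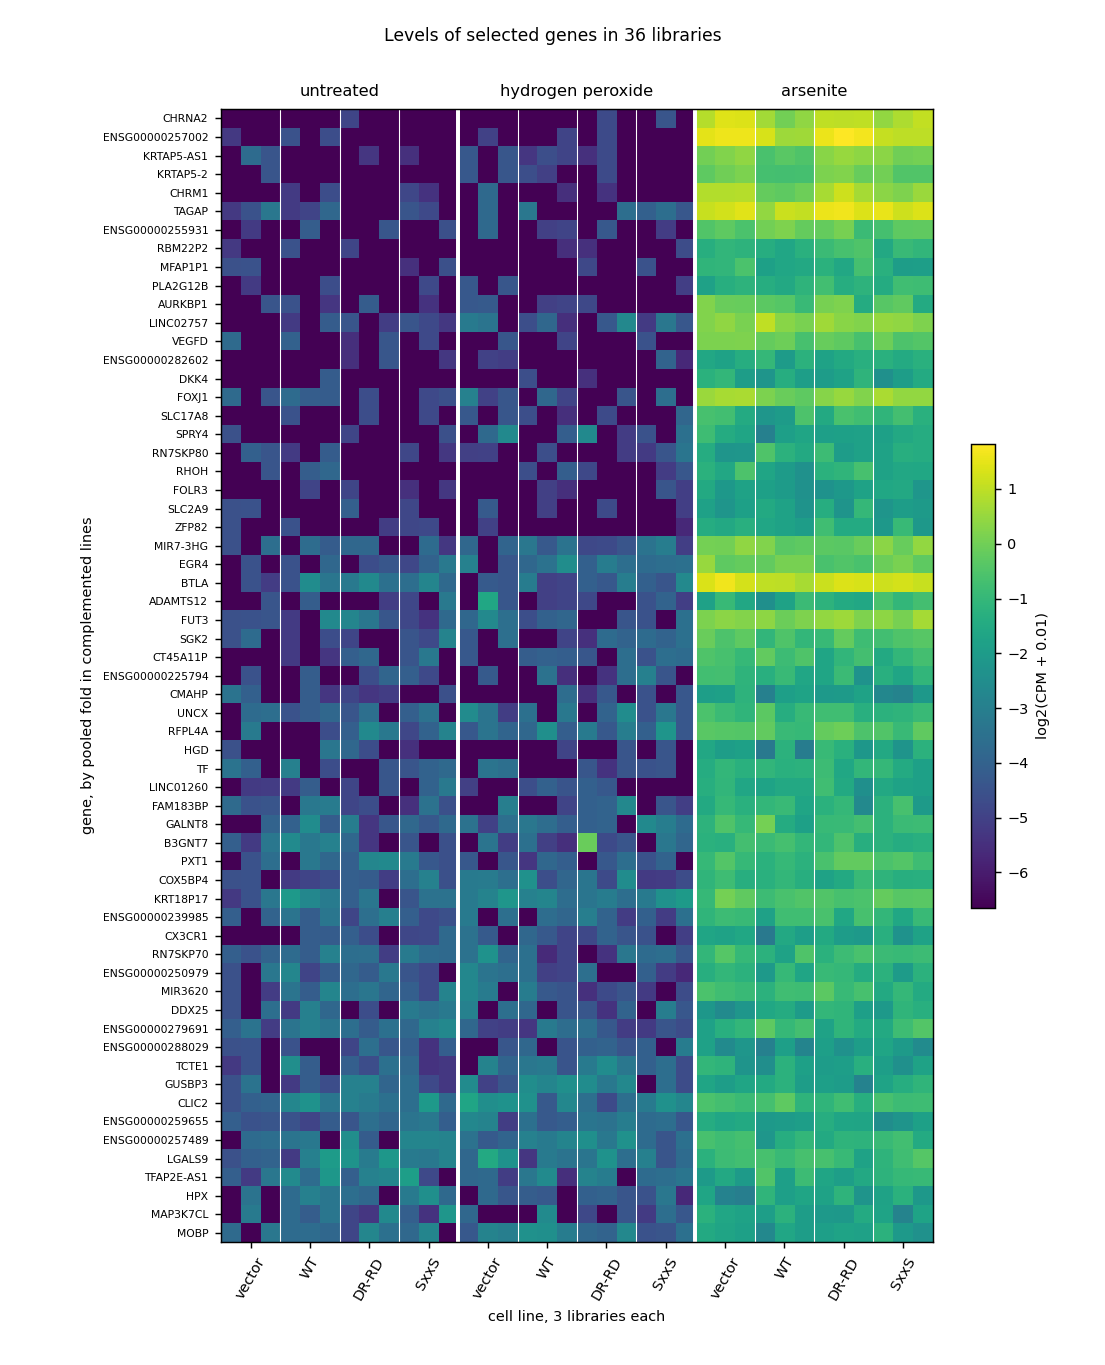
Each row is one of the selected genes (1 is not shown), ordered by pooled fold, each column one of 36 libraries grouped by treatment and line, and the colour is log2(CPM + 0.01). The arsenite columns are bright in every row, which the choice of genes fixes, while single hydrogen peroxide libraries stand out in some rows, such as 73 counts of B3GNT7 in DR-RD replicate 1 and 15 counts of ADAMTS12 in vector replicate 2.

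Promoter sequences, from 250 bases before to 50 after the start, were found in RefSeq (GRCh38.p14) for 27 of the 62 genes. The heat shock element, searched on both strands as 3 alternating units, was in 0 of 27, and in 0.5% of 34943 promoters of the same length. AP-1 (TGANTCA) was in 4 of 27 (14.8% against 7.7%), the metal response element (TGCACNC or TGCGCNC) in 9 (33.3% against 29.5%), the antioxidant response element (TGACNNNGC) in 4 (14.8% against 13.3%), the cAMP response element (TGACGTCA) in 1 (3.7% against 1.8%) and the ATF4 element (TGATGNAA) in 1 (3.7% against 3.6%). A match is not evidence of binding, and no match says only that the letters are absent from this window. The 4 promoters that hold AP-1 are shown as examples, chosen after the matches were seen, with the AP-1 letters in capitals.
VEGFD, chrX:15384364-15384663, minus strand: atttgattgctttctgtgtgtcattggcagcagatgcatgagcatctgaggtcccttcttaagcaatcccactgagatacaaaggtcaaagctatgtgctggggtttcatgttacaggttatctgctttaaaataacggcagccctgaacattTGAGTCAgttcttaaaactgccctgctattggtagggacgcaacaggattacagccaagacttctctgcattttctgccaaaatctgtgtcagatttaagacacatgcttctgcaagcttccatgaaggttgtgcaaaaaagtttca
CLIC2, chrX:155334565-155334864, minus strand: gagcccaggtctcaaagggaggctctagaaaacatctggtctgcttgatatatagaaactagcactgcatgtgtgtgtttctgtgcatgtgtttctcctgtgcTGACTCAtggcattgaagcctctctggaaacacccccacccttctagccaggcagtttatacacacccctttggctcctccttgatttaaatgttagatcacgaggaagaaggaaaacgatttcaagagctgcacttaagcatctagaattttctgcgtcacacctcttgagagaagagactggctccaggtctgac
PXT1, chr6:36442805-36443104, minus strand: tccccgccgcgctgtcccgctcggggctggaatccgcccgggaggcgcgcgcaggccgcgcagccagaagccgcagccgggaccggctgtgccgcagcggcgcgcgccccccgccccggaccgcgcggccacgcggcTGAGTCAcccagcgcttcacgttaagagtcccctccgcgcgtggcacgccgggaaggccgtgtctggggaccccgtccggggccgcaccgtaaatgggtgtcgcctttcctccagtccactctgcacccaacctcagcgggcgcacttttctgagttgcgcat
ADAMTS12, chr5:33891941-33892240, minus strand: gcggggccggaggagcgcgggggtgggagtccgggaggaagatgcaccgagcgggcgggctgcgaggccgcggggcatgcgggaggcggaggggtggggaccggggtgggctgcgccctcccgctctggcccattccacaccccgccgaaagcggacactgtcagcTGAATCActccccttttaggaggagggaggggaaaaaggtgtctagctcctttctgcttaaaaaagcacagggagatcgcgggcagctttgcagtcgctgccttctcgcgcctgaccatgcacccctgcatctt

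The only microRNA gene of the set, MIR3620 on chromosome 1 (chr1:228097263-228097341, plus strand), lies wholly within the exons of ARF1, so all of its bases can also be counted for ARF1. Its 2 mature forms are given because they identify the locus, with bases 2 to 8, the seed, in capitals.
hsa-miR-3620-5p: gUGGGCUGggcugggcugggcc
hsa-miR-3620-3p: uCACCCUGcaucccgcacccag

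Levels under arsenite were low, and in RNA from whole cultures few cells with much of a transcript and many cells with little cannot be told apart. The median count over the 12 arsenite libraries ran from 16.5 to 209.5 between genes (median gene 36.75), and 43 of 62 genes lay under 50. In the 9 untreated complemented libraries the total per gene ran from 0 to 79 (median 19.5), which is 2.17 counts per library against 1.33 in the vector libraries that had been chosen to be low. The 5 highest totals there were 79 in LGALS9, 70 in CLIC2, 68 in TFAP2E-AS1, 57 in BTLA and 55 in ENSG00000257489. Fewer than 10 counts in each of the 4 untreated groups were found for 30 of 62 genes. In complemented cells, the 9 arsenite libraries lay above all 9 untreated libraries for 59 of 62 genes, a pattern that 10.7% of all genes tested showed and that the choice favours. The exceptions were TCTE1, TFAP2E-AS1 and MAP3K7CL. For 54 genes all 12 arsenite libraries lay above all 12 hydrogen peroxide libraries, as for 7.46% of all genes tested, and the arsenite minimum of the choice favours this too.

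**Figure D2:**
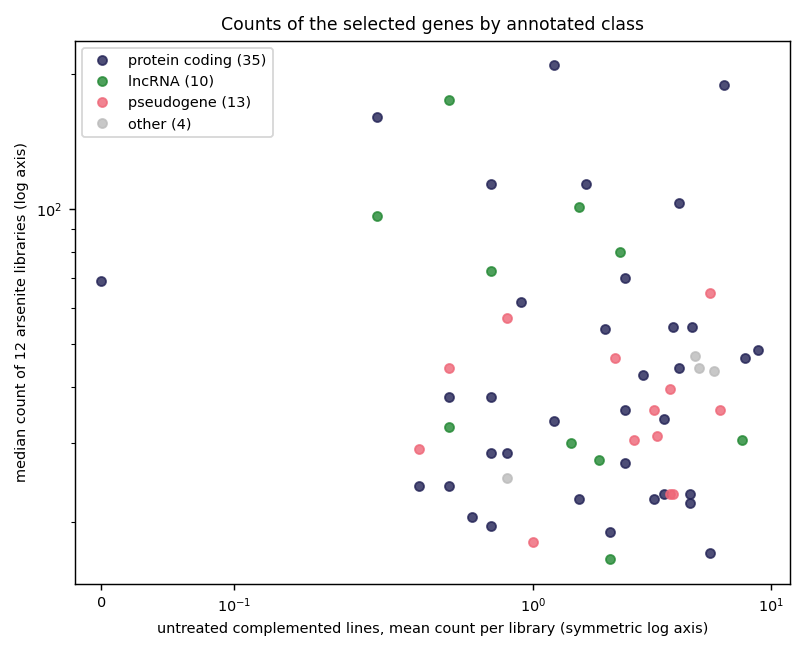
Each point is a gene, with its mean count per untreated complemented library on a symmetric log axis and its median count over the 12 arsenite libraries on a log axis, coloured by annotated class. Coding genes lie between 17 and 209.5 arsenite counts, lncRNAs between 16.5 and 175.5 and pseudogenes between 18 and 65.

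The genes differed widely in size of response. Counts pooled over the 9 arsenite and the 9 untreated complemented libraries, each scaled to library size, gave folds with a median of 14.9, of at least 10 for 37 genes and between 3 and 10 for the other 25. Intervals are 95% exact Poisson intervals for the untreated count alone and cover counting error only. Over the whole table a count of 2 occurred 68757 times and a count of 3 occurred 28087 times, and where both mates of a fragment were counted these intervals are too narrow. CHRNA2 (chr8:27459756-27479883) had 0 counts in 8 untreated complemented libraries and 2 in the other, and 84, 338 and 300 counts in the vector, 240, 42 and 121 in the WT, 106, 161 and 161 in the DR-RD and 107, 161 and 169 in the SxxS arsenite libraries. All 12 arsenite counts lay far above the untreated ones, and the pooled fold was 491 (136 to 4051). TAGAP, a GTPase-activating protein of T cells, held between 0 and 4 counts in untreated complemented libraries and 92 to 313 in arsenite libraries (median 209.5), a fold of 124 (69.2 to 248). BTLA, an inhibitory receptor of lymphocytes, was already counted in every untreated complemented library (2 to 10) and reached 83 to 395 with arsenite, a fold of 22.4 (17.3 to 29.6). FOXJ1 (chr17:76136333-76141245, minus strand) held 0 to 4 counts in untreated complemented libraries and 67, 207 and 191 in vector, 167, 38 and 76 in WT, 63, 116 and 92 in DR-RD and 131, 130 and 112 in SxxS arsenite libraries, a fold of 47.7 (28.9 to 85.3). VEGFD held 0 to 3 counts and then 51, 141 and 130, 134, 40 and 58, 47, 67 and 51, and 75, 64 and 60 in the same order, a fold of 57.7 (29.3 to 134). Neither gene's arsenite counts overlapped the untreated ones. Some folds were far smaller. LGALS9, a galectin, held 1 to 16 counts untreated and 22 to 97 with arsenite in complemented cells, a fold of 4.17 (3.35 to 5.27). TCTE1 held 0 to 10 and 13 to 32. The smallest fold was that of MOBP, a myelin gene, at 3.53 (2.60 to 4.92).

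The immediate early genes, which respond to many stimuli without new protein synthesis, contributed EGR4. Of 24 such genes listed it was the only one silent in untreated vector cells. Its counts in the untreated lines were 0 to 2 in vector, 0 to 4 in WT, 0 to 2 in DR-RD and 2 to 6 in SxxS, and under arsenite they were 66, 103 and 100 in vector, 130, 44 and 97 in WT, 34, 58 and 52 in DR-RD and 74, 102 and 66 in SxxS. Groups did not overlap, and the pooled fold was 23.1 (15.3 to 36.9). Of 24 chaperone genes listed 4 were silent in the same sense (HSPB2, HSPB3, HSPB7 and DNAJB8), of 23 cytokines 18 were, and of 14 targets of NRF2, the factor that answers electrophiles, 3 were (AKR1B10, AKR1C1 and AKR1C2). None of these 25 is in the set. CRYAB and HSPA7, which met the limits, were left out by symbol and are not among the 24 chaperone genes listed.

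**Figure D3:**
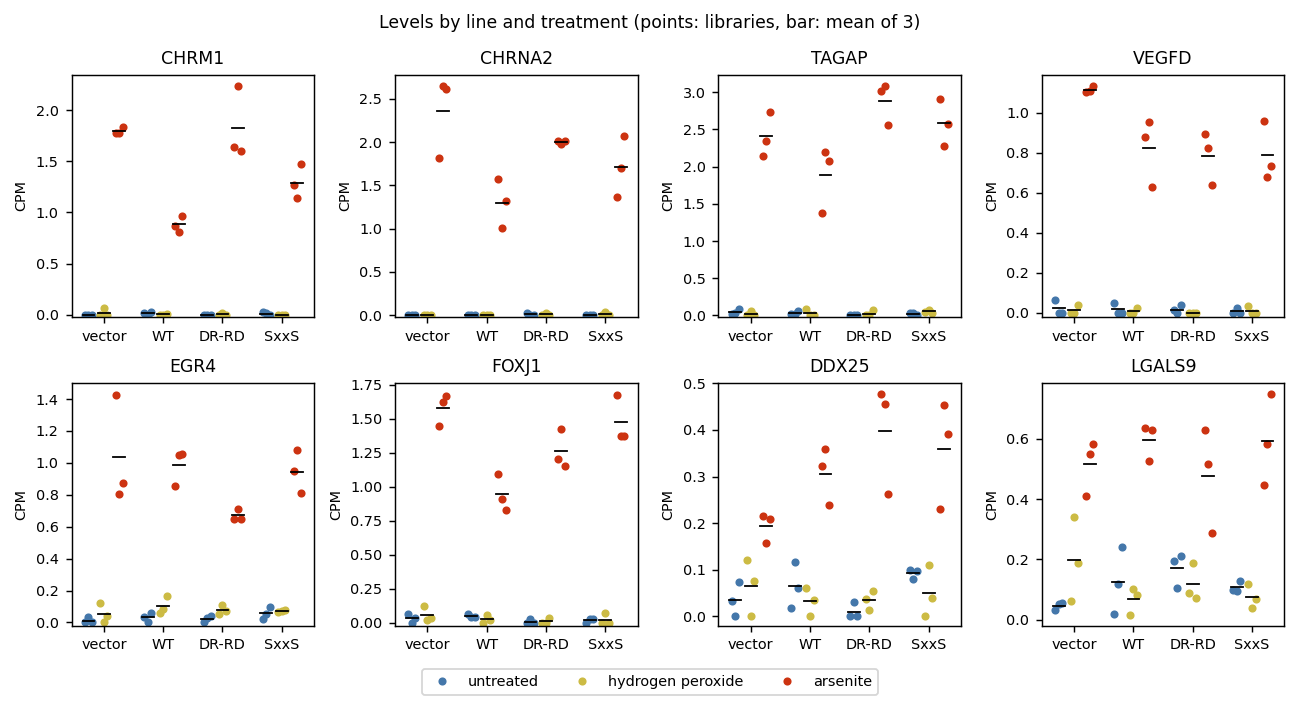
Points are single libraries in CPM for 8 genes, by line and treatment, and bars are means of 3. Arsenite points of CHRM1, CHRNA2, TAGAP, VEGFD and FOXJ1 sit well above all untreated and hydrogen peroxide points, while those of DDX25 and LGALS9 are nearer to them.

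Per kilobase, so that genes of unequal length can be compared, the median arsenite level ran from 0.0159 CPM per kb (TF) to 6.89 CPM per kb (MIR3620). The 15 highest were MIR3620, ENSG00000257002, ENSG00000239985, ENSG00000279691, RN7SKP70, RN7SKP80, COX5BP4, ENSG00000282602, AURKBP1, KRTAP5-2, LINC02757, BTLA, RFPL4A, TAGAP and KRT18P17. Non-coding RNAs and pseudogenes led this order, and 4 coding genes (KRTAP5-2, BTLA, RFPL4A and TAGAP) were in it. MIR3620 and the pseudogene ENSG00000239985 lie wholly within exons of another gene on the same strand, and COX5BP4 does so on the other strand.

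Whether the libraries were counted by strand bears on such overlaps. The labels call the libraries strand-specific, but among 267 genes at least 99% covered by exons of one gene on the opposite strand (covering gene with 3000 counts or more), the level per length was a median of 91.9% of that of the covering gene, above 50% in 177 and below 1% in 27. An overlap on either strand can therefore share reads here. Exons of another gene overlapped 29 of the 62 (46.8%), against 30% of the silent genes and 48.6% of all genes tested. Same-strand overlap was found for 13 and opposite-strand overlap for 18. Overlap with exons of an expressed gene, one with a median of at least 100 untreated counts, was found for 9 (14.5%), against 9.7% and 31.3%.

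Shared reads join pairs of the set. ENSG00000257002, a lncRNA (chr11:62909546-62918361, plus strand), and CHRM1 (chr11:62908679-62921807, minus strand) overlap, with 41.8% of the exon bases of the lncRNA under CHRM1. The lncRNA had 129, 391 and 351 counts in vector, 374, 62 and 139 in WT, 155, 288 and 253 in DR-RD and 165, 186 and 161 in SxxS arsenite libraries, where CHRM1 had 82, 227 and 211, then 133, 34 and 89, then 86, 182 and 128, and then 99, 108 and 120. In every arsenite library the lncRNA had more counts than CHRM1, and in untreated complemented libraries their totals were 4 and 6. KRTAP5-2, a hair keratin-associated protein, lies 93.6% under KRTAP5-AS1 on the other strand, and their arsenite ranges were 25 to 127 and 33 to 152 counts. KRTAP5-2 had 0 untreated complemented counts, so it was at least 155.5-fold higher with arsenite, against a floor of 3 counts over the group (126 against the Poisson limit used for the other folds). The gene bodies of the pseudogenes RBM22P2 and MFAP1P1 overlap each other and that of HMGB1 without shared exons. The members of the first pairs can hold the same reads and are not independent. Gene pairs within 250 kb of each other numbered 5, of which SLC17A8 with ENSG00000257489 (157.3 kb apart) and CX3CR1 with MOBP (185.5 kb apart) did not overlap.

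**Figure D4:**
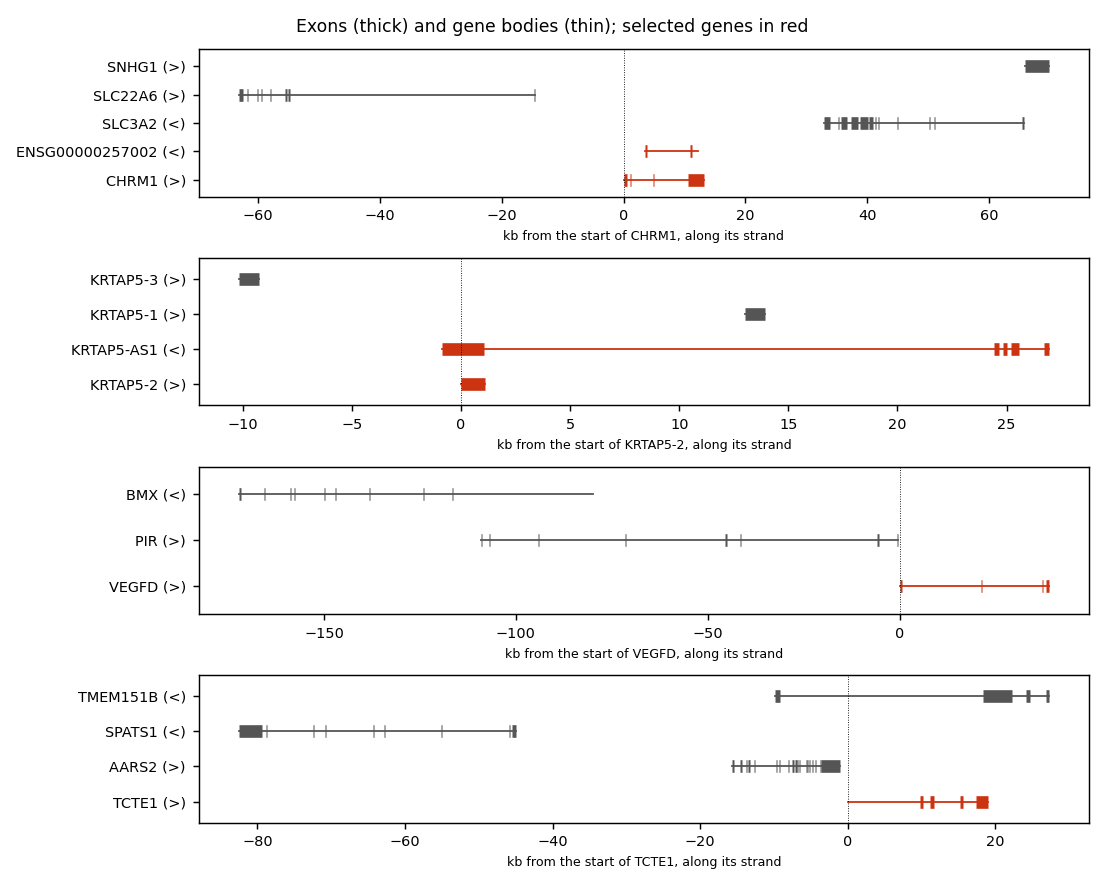
Exons (thick) and bodies (thin) of 4 loci are drawn by distance in kb from the start of the named gene along its strand, with selected genes in red and arrows for the strand relative to it. KRTAP5-2 is 93.6% covered by an exon of KRTAP5-AS1, and PIR ends 386 bases before VEGFD begins.

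Other genes lay under a neighbour that is no member. MIR3620 stood at 3.30% of the level per length of ARF1 with arsenite, and ARF1 rose from 510 ± 19.7 to 657 ± 17.9 CPM (SD, n = 9). RN7SKP70 shares 59.4% of its bases with CLK4, a kinase of splicing factors, which rose from 16.9 ± 1.04 to 44.3 ± 1.91 CPM (log2 change 1.39, SE 0.05). COX5BP4 is covered by RAB30-DT and reached 90.9% of its level per length with arsenite and 15.9% without. LINC01260 is covered by ENSG00000132832, itself at only 0.154 CPM untreated and 0.507 CPM with arsenite, and stood at 91% of its level per length with arsenite and 28.3% without. In a like manner ENSG00000239985 lies in CCT6P3, GUSBP3 in ENSG00000290560, ENSG00000257489 in ENSG00000290576 and ENSG00000259655 under ENSG00000290767, none of which was analysed here. The 29 genes with shared exons had a median fold of 9.27, the 18 with an expressed end within 50 kb but no overlap 25.5, the 10 that only overlap a gene body 28.9, and the 5 with none of these (among them CHRNA2, CX3CR1, ENSG00000250979 and UNCX) 9.50, in classes drawn up after the values were seen. GUSBP3, RFPL4A, CT45A11P, the KRTAP5 and 7SK genes also belong to families of near-identical copies, so their counts are uncertain. The part that reads of the neighbours have in these counts was not tested.

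Place next to other genes was described for all 62. The end of an expressed gene that pointed at the member lay within 50 kb, on either strand, for 40 of 62 (64.5%), against 45.7% of the silent genes and 53% of all genes tested, and within 5 kb for 11 (17.7%, against 10% and 15.7%). On the same strand the 50 kb share was 50% (31 of 62), against 29.5% and 35.9%, and the median distance was 50.1 kb, against 138.3 and 104.5 kb. Close expressed neighbours on the same strand were PIR, 386 bases before VEGFD, AARS2, 1033 bases before TCTE1, RNF157, 1220 bases before FOXJ1, RABL3, 2669 bases before HGD, and HYLS1, 2702 bases before DDX25. SLC3A2, an amino acid transporter subunit, ends 20.7 kb before ENSG00000257002. With arsenite SLC3A2 rose from 169 ± 9.85 to 798 ± 76.7 CPM (SD, n = 9), and PIR from 8.05 ± 0.837 to 12.1 ± 1.86 CPM. AARS2 fell from 55.3 ± 2.70 to 48.5 ± 1.95 CPM and RABL3 from 27.9 ± 1.19 to 20.7 ± 1.51 CPM, so close neighbours moved both ways. No gene body overlapped 23 of the 62 on either strand (37.1%), against 32.4% and 26.9%.

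**Figure D5:**
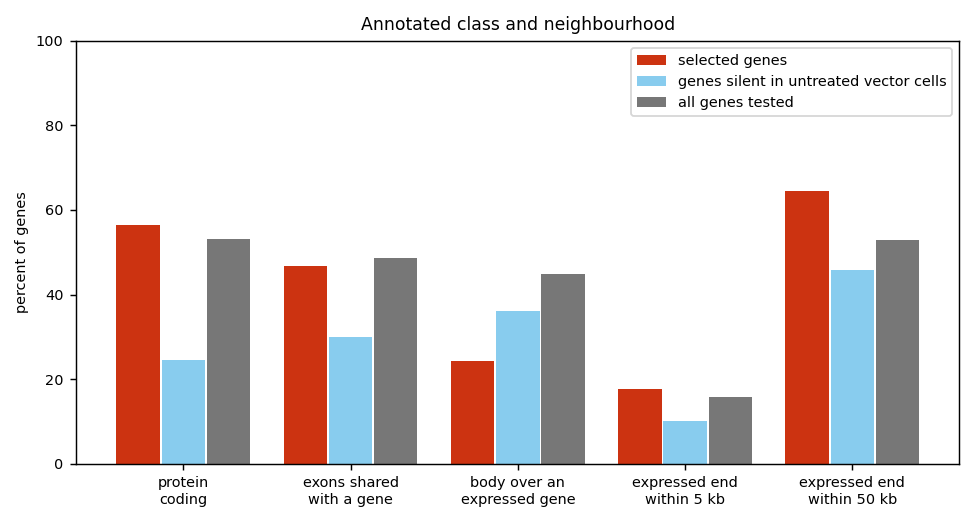
Bars give the percentage of the 62 selected genes, of the 10204 silent genes and of all genes tested with each property. The selected genes are above the silent genes for coding class (56.5% against 24.6%) and for an expressed end within 50 kb (64.5% against 45.7%), and below them for a body over an expressed gene (24.2% against 36%). All genes tested stand at 53.1%, 53% and 44.8% for these properties.

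Genes beside the members were also compared. Of 76 genes that overlap a member by exons or are the nearest to end upstream on its strand, 45 rose and 10 fell with arsenite in complemented cells (edgeR, adjusted p under 0.05), while 28.6% of all genes tested rose and 20.8% fell. The median log2 change was 0.54, against 0.15 over all genes tested. Neighbours that share exons with a member can hold the reads by which it was chosen, so this count is not independent of the choice. When only genes without exon overlap were counted from the same fit, 24 neighbours were left. Of these 15 rose and 2 fell, against 24.9% and 18.0% of the 16766 such genes. Among the 39 expressed genes that point at a member within 50 kb on either strand, 19 rose and 11 fell (48.7% and 28.2%), against 36.6% and 37.5% of the 3674 such neighbours of silent genes, without a test of that difference.

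Hydrogen peroxide gave a test on libraries that had no part in the choice. Of the 62 genes none was called in either direction, averaged over the 3 complemented lines (edgeR, 9 libraries against 9), where 2.99% of all genes tested were called higher and 1.85% lower. Only 52 of the 62 held at least 10 counts over the libraries compared. CHRNA2 and CHRM1, with 0 counts in whole groups, had averaged log2 changes with SEs of 1929 and 1813 and could not be called. The absence of a call therefore cannot be read as the absence of a response. An unadjusted p under 0.05 was found for 12 of 62, and for 16.3% of all genes tested. DESeq2 called 2, EGR4 higher and MIR3620 lower, and 10.7% of the 22566 genes to which it gave an adjusted p. The smallest edgeR p-values were those of MIR3620 (log2 change -1.33, SE 0.42, adjusted p = 0.0663), EGR4 (log2 change 1.25, SE 0.42, adjusted p = 0.0861) and ENSG00000279691 (log2 change -0.94, SE 0.33, adjusted p = 0.112). EGR4 had 2, 0 and 4 untreated and 4, 8 and 14 hydrogen peroxide counts in WT, 0, 2 and 2 against 4, 8 and 4 in DR-RD, and 2, 4 and 6 against 4, 4 and 8 in SxxS. The groups were separate in DR-RD but overlapped in SxxS. MIR3620 had 5, 2 and 9 counts in untreated WT libraries and 7, 4 and 3 with hydrogen peroxide, 6, 6 and 3 against 1, 2 and 2 in DR-RD, and 4, 2 and 8 against 1, 0 and 3 in SxxS. These groups overlapped in WT and SxxS and were separate in DR-RD. With both outlying WT libraries left out, 5 genes were called (EGR4, ENSG00000279691, MAP3K7CL, MIR3620 and SPRY4), as were 13.4% of all genes in that fit, so the members' share was below that of all genes.

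Within single lines, 1 gene was called in WT cells (4.38% of all genes tested) and 0 in DR-RD (0.495%) and SxxS (0.422%). At least 10 counts over the libraries compared were held by only 37 members in WT, 36 in DR-RD and 41 in SxxS. The called gene was GUSBP3, a pseudogene with 1, 2 and 2 counts untreated and 11, 13 and 15 with hydrogen peroxide (log2 change 2.34, SE 0.70, adjusted p = 0.0483). The call was lost with DESeq2 size factors, total counts, DESeq2, no filter, the replicate block or only the groups compared, and it was kept in 1 of the 6 fits that left out a WT library of this comparison (without WT hydrogen peroxide replicate 1). The call was also kept with edgeR's own filter, with at least 10 counts over the libraries compared and without both outlying WT libraries. GUSBP3 had 10, 8 and 3 against 13, 7 and 8 in DR-RD and 6, 2 and 1 against 0, 4 and 3 in SxxS, and it shares all its exons with ENSG00000290560. A single library decided another value: B3GNT7, a glycosyltransferase, had 73 counts in DR-RD hydrogen peroxide replicate 1 and at most 6 in the other 11 hydrogen peroxide libraries. The median gene stood at 0.0305 CPM untreated and 0.0325 CPM with hydrogen peroxide in WT, 0.0242 and 0.0301 CPM in DR-RD, and 0.0324 and 0.0354 CPM in SxxS, against 0.441 to 0.491 CPM with arsenite in the 4 lines.

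The lines were compared under arsenite, with values that the choice used. The 3 WT and 3 vector libraries did not overlap for 18 of 62 genes, 3 higher and 15 lower in WT (16.0% of all genes tested did not overlap). For DR-RD this was so for 8 genes, 2 higher and 6 lower (12.2%), and for SxxS for 11, 2 higher and 9 lower (13.3%). Shares by direction over all genes are not given here. WT arsenite replicate 1 was an outlying library. The genes lower in WT include CHRM1 with ENSG00000257002 and KRTAP5-2 with KRTAP5-AS1, pairs that can hold the same reads. CHRM1 was at 1.80 ± 0.0366 CPM in vector, 0.884 ± 0.0785 in WT, 1.83 ± 0.356 in DR-RD and 1.29 ± 0.166 in SxxS (SD, n = 3). VEGFD, a lymphatic growth factor, was lower than vector in all 3 complemented lines (1.11 ± 0.0169 CPM against 0.822 ± 0.170, 0.785 ± 0.133 and 0.790 ± 0.149). DDX25, a helicase of germ cells, was higher in all 3 (0.194 ± 0.0325 CPM against 0.306 ± 0.0609, 0.398 ± 0.117 and 0.359 ± 0.116). FOXJ1 was lower than vector in WT (0.943 ± 0.138 against 1.58 ± 0.115 CPM) and in DR-RD (1.26 ± 0.146) but overlapped it in SxxS (1.47 ± 0.175). Whether each line was 1 transduced culture is not given in the sources used here, so line and culture cannot be told apart.

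The limits of the choice cut through a continuous range. Just inside the untreated limit, with 9 counts, were ENSG00000279691, B3GNT7, TFAP2E-AS1 and MOBP, and just outside, with 10 or 11, were 14 genes such as ENSG00000287535, PTGER3 and SPDYE18. Just inside the arsenite limit, with a lowest library of 10 counts, were 9 genes such as SLC17A8, RHOH and DDX25, and just outside, with 9, were 13 genes such as RAB33A, SSMEM1 and FRMD1.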

How the data were processed

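Messenger RNA of 36 libraries was sequenced as 100-base paired reads. Per the study's methods, the authors aligned them to the GRCh38 primary assembly with qAlign and deposited raw counts per gene with a length per gene. They named DESeq2 in the processing notes, and the counting annotation, its strand setting and the counting of mates are not given in the sources used here. The authors' own filter, 10 counts in untreated KO cells, would leave out every gene described here, so genes with at least 10 counts over the 36 libraries were tested (32718). The members and lists were chosen with earlier results of these data known.

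Groups came from the sample titles. Gene identities and positions came from GENCODE 44 on GRCh38, which held 61415 of 61587 identifiers, and the deposited length equalled its exon length for 93.6% of genes. edgeR 4.0.16 (R 4.3.3, limma 3.58.1) was run with TMM scaling, a mean per group and robust quasi-likelihood, with Benjamini-Hochberg adjustment over all genes tested and calls at 0.05. DESeq2 1.42.0 was an alternative. CPM are edgeR's counts scaled to TMM-adjusted library size. Overlaps used bedtools 2.31.1. On simulated counts for 32230 genes, 195 of 200 genes changed by 1 log2 unit were recovered for the average over complemented lines and 166 of 200 within WT. The changed genes had a mean of at least 10 counts per library, and all genes had the same spread between replicates. The members held a median of 2.17 counts per untreated complemented library, so this recovery does not apply to them. The methods state that cells were treated in triplicate, without saying whether on separate days, so p-values measure the spread between these samples. No replicate pair was a duplicate (chi-square over its degrees of freedom from 3.31 to 341). Members were named by level per length (15 highest), by the lists, by untreated counts, by overlap and by distance to the limits, and others, named for fold, place or line, were chosen after their values were seen. Sequence matching covered 27 of 62 promoters. 0 columns were left unmatched to a sample. Values of 1 member are in the counts and medians but are not reported here by name.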

Additional observations from a re-analysis of the deposited data

Results flagged for a closer look

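In 2 genes every hydrogen peroxide library of WT cells lay above, and every one of SxxS cells below, all untreated libraries of the same line, in CPM. COX5BP4, a pseudogene under RAB30-DT, had a log2 change of 1.76 in WT and -1.68 in SxxS, and ENSG00000257489, a pseudogene within another gene's exons, had 1.08 in WT and -1.04 in SxxS. No change passed the adjusted threshold, and the difference between lines was not tested. The share of all genes tested with this pattern is not given here. In COX5BP4 the WT groups were barely apart and near 0. WT hydrogen peroxide replicate 2, an outlying library, had 3 counts (0.0309 CPM), and WT untreated replicate 3 had 2 (0.0302 CPM).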

How the results depend on the processing

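The number of genes followed the limits: 33 with fewer than 5 untreated vector counts, 9 with 0, 22 with at least 20 arsenite counts per library, 4 with at least 50 and 30 with fewer than 10 in each untreated group. Scaling to the smallest library gave 45 (33 shared), halving the counts 47 (22 shared) and keeping all families 67. With 1 library left out it ran from 62 to 113, and was 113, 113 and 98 without vector untreated replicates 1, 2 and 3. The limits were not changed for these counts, so leaving out a library could only keep or add genes.

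For hydrogen peroxide averaged over the complemented lines, DESeq2 called 2 members, edgeR's own filter 1 and, chosen after seeing the data, the fit without both outlying WT libraries 5, and 1 library left out gave 0 to 1. With edgeR's own filter, 1113 of all 22277 genes were called higher and 837 lower. In WT the 1 call became 0 with DESeq2 size factors, total counts, DESeq2, no filter, the replicate block, only the groups compared or genes without exon overlap, became 2 with edgeR's own filter, and ran from 0 to 1 with 1 library left out, where the call was GUSBP3, TF (without WT untreated replicate 2) or RFPL4A (without WT hydrogen peroxide replicate 3). The count stayed at 1 with at least 10 counts over the libraries compared and without both outlying WT libraries. With edgeR's own filter, 1318 of all 22277 genes were called higher and 527 lower in WT. In DR-RD 2 were called without both outlying WT libraries, where 1049 of all 32250 genes were called higher and 827 lower. With 1 library left out 0 to 1 were called in DR-RD. In SxxS the count was 0 throughout these alternatives. Calls over all genes are not given here for the fits with 1 library left out. Correlations of same-numbered samples ran from -0.341 to 0.44 over the lines. They were above 0.1 for all 3 pairs in DR-RD (0.168 to 0.389) but not in WT or SxxS. Whether the replicate numbers pair the samples in any line is not given in the sources used here. The replicate block gave 0 calls in the average, DR-RD and SxxS and 43 neighbours called higher.

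The 45 neighbours called higher ran from 38 to 46 over the other alternatives, and were 15 among genes without exon overlap and 19 by ends pointing at a member within 50 kb, where fewer genes enter. With 43 of 62 genes under 50 counts in arsenite libraries and near 0 in the rest, folds are imprecise, and the power to detect changes at these counts was not tested.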
